A study of Penicillium oxalicum with 6 samples.

Results

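The genes described here are the 113 abundant genes of Penicillium oxalicum whose ribosome footprints were between 2-fold and 4-fold lower in a PoxTMA7 knockout than in the wild type, out of 8909 gene identifiers listed. They were chosen from the FPKM values (footprints per gene, scaled by the authors) of all 6 libraries: a wild-type mean of at least 300, a knockout mean above 0.25 and at most 0.5 of it, and every wild-type value above every knockout value. Identifiers in a pair of ranges (POX_3g03754 to POX_3g03758 and POX_5g06591 to POX_5g06598) were to be left out, and none of the 12 listed there met the level and the ratio. The condition that the strains do not overlap removed no gene either, so level and ratio alone set the 113. Because these values chose the genes, their difference between strains is given as a description, without a test.

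The study profiled ribosomes in mycelia of the wild type (n = 3 libraries) and of the strain lacking PoxTMA7 (n = 3), both moved, after 24 h of preculture on 1% glucose, to 1% Avicel (microcrystalline cellulose) for a further 24 h. All libraries are labelled biological replicates, and the labels do not say how many independent knockout transformants they represent. The genotype field of knockout replicates 2 and 3 reads PoxTMA8 and PoxTMA9, while the titles name PoxTMA7, and the titles were followed. The level of PoxTMA7 itself was not analysed here.

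Ribosome profiling sequences the stretch of mRNA that a translating ribosome shields from nuclease, so the footprints of a gene count ribosomes on its mRNA and move with both the amount of that mRNA and the ribosomes per mRNA. In yeast, the protein TMA7 was named for its association with translation machinery. P. oxalicum is a filamentous fungus known for the cellulases that it secretes on plant cell wall material. Matched mRNA levels were not analysed here, so fewer transcripts and fewer ribosomes per transcript cannot be told apart, nor can fewer cells expressing a gene. None of the 8909 identifiers matched the 9964 genes of the reference table, and the files pair no identifier with a name, so what the 113 genes encode is not known here and each is called by its identifier.

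Footprint numbers were recovered from the steps between FPKM values, which came out whole for all 113 members. Summed over the 7855 genes above 0 in at least 3 libraries, this gave 449404 to 878479 footprints per wild-type library and 1185598 to 1475168 per knockout library. These totals, and the shares built on them, could not be set against counts. A member had 78 to 2908 footprints in a wild-type library and 71 to 1810 in a knockout library. The members were lower in the strain with the deeper libraries, and the lowest recovered knockout total was 1.35 times the highest wild-type total, so depth and strain go together in this design.

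The 113 genes are 1.27% of all identifiers and 19.0% of the 594 genes with a wild-type mean of at least 300. Of those 594, another 73 had a ratio of at most 0.25 and 408 a ratio above 0.5. The summed FPKM of the 113 genes was 94732, 93254 and 96833 in wild-type replicates 1, 2 and 3, and 34979, 35192 and 36488 in knockout replicates 1, 2 and 3. The mean sum was 94940 ± 1799 (SD, n = 3) for the wild type and 35553 ± 817 (SD, n = 3) for the knockout. The rule holds each member's ratio between 0.25 and 0.5, so the gap between the strains in these sums follows from the choice. The shares below carry the same gap. As a share of all FPKM of a library, the members held 9.28% ± 0.16 in wild-type libraries (SD, n = 3) and 3.64% ± 0.089 in knockout libraries (SD, n = 3). In footprints recovered from 7855 genes, which need no divisor per gene, the shares were 8.32% ± 0.16 for the wild type and 3.27% ± 0.084 for the knockout (SD, n = 3 each).

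**Figure D1:**
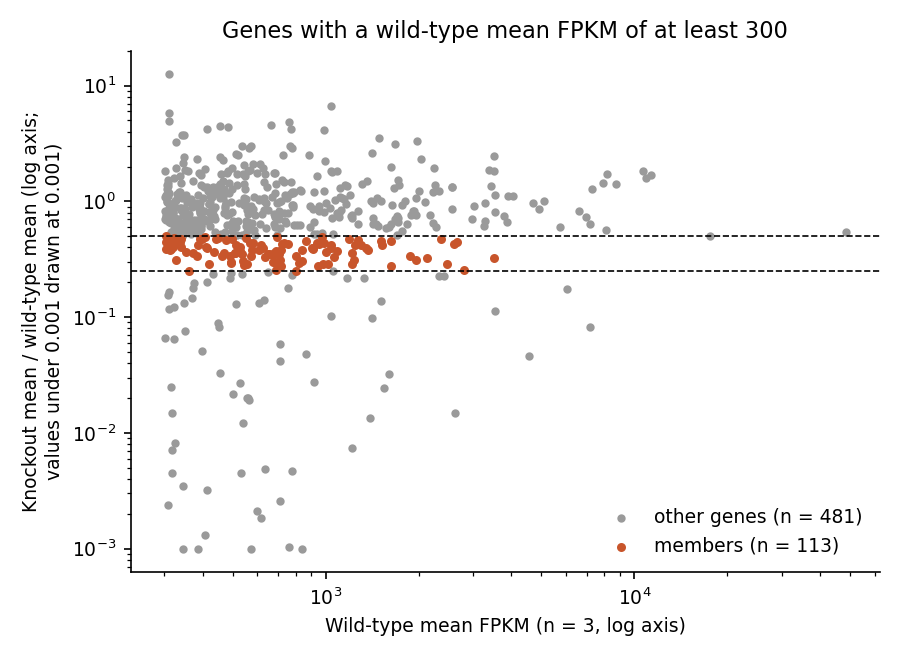
Knockout over wild-type ratio of mean FPKM (log axis) against wild-type mean FPKM (log axis) for the 594 genes with a wild-type mean of at least 300, 1 point per gene; dashed lines mark 0.25 and 0.5. The 113 members fill the band between the lines, from a wild-type mean of 303.8 to 3512, with genes above and below the band.

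The wild-type means of the members ranged from 303.8 to 3512 FPKM with a median of 674.2, and the knockout means from 90.5 to 1176 with a median of 233.2. The gene length used for each FPKM is not given, so the order of levels between genes is rough. With that limit, 13, 13 and 15 members were among the 100 highest genes of wild-type libraries 1, 2 and 3, and 0 were among the 100 highest of any knockout library. Among the 500 highest genes, the wild-type libraries held 99 or 100 members and the knockout libraries 40 or 41. The members were chosen for a high wild-type level and a lower knockout level, so this fall in rank follows from the rule. The ratio of knockout to wild-type mean had a median of 0.384 and spread over the whole range allowed: 18 genes lay between 0.25 and 0.3, 49 between 0.3 and 0.4 and 46 between 0.4 and 0.5. By level, the median ratio was 0.378 for the 28 genes at 1000 FPKM and above, 0.373 for the 49 from 500 to 1000 and 0.406 for the 36 from 300 to 500. The rule holds the ratio between 0.25 and 0.5 at every level, so these medians do not bear on whether the ratio depends on level.

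**Figure D2:**
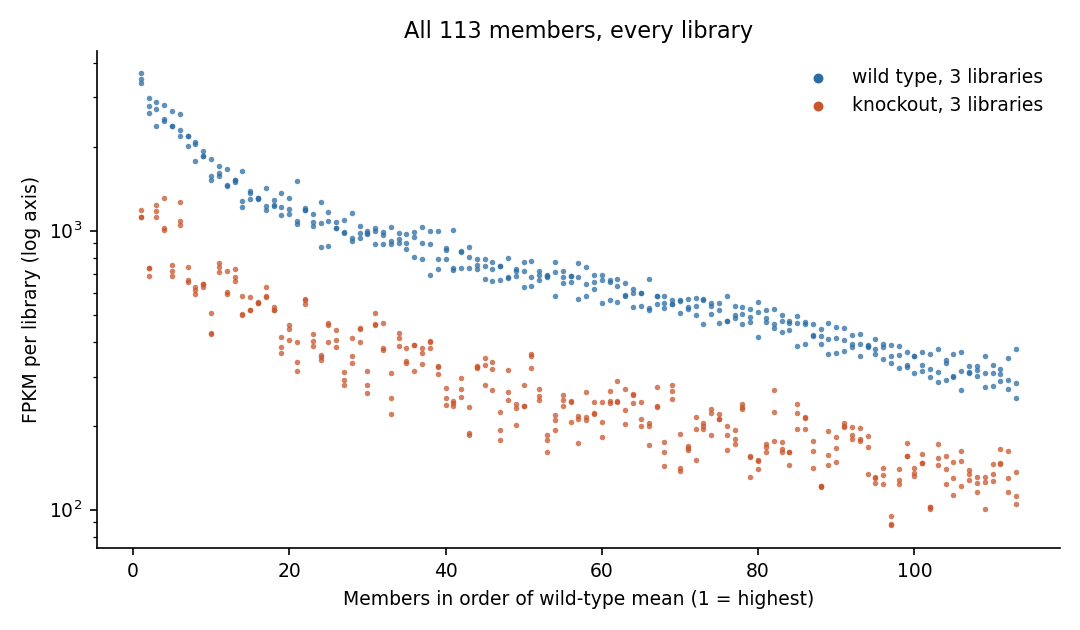
FPKM in each of the 6 libraries (log axis) for all 113 members, ordered by wild-type mean. The 3 wild-type points of every gene lie above its 3 knockout points, as the choice requires, and the knockout points decline with the wild-type order and scatter around it.

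The 10 members with the highest wild-type means carried between 1634 and 3512 FPKM there. POX_5g06813, the highest, had 3495, 3382 and 3659 FPKM in wild-type replicates 1 to 3 and 1122, 1114 and 1182 in knockout replicates 1 to 3. POX_6g08301 had 2805, 2638 and 2994 in the wild type and 735.7, 689.0 and 734.7 in the knockout. Both were measured tightly, with replicate coefficients of variation (CV, SD over mean) of 3.24% to 6.34%, and POX_6g08301 was the most reduced of the 10 at a ratio of 0.256, against 0.324 for POX_5g06813.

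POX_1g00759 had 2716, 2895 and 2364 FPKM in the wild type and 1180, 1233 and 1115 in the knockout, a ratio of 0.442. POX_1g00217 had 2518, 2475 and 2820 in the wild type and 1006, 1024 and 1306 in the knockout, a ratio of 0.427. POX_5g07223 had 2295, 2176 and 2625 in the wild type and 1051, 1078 and 1261 in the knockout, a ratio of 0.478. These 3 were the least reduced of the 10, and in each of them replicate 3 was the library furthest from the others in both strains: lowest for POX_1g00759 and highest for POX_1g00217 and POX_5g07223.

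POX_4g05974 had 2370, 2378 and 2688 FPKM in the wild type and 684.7, 715.3 and 753.9 in the knockout, a ratio of 0.290. POX_1g00683 had 2180, 2012 and 2184 in the wild type and 653.7, 665.4 and 740.4 in the knockout, a ratio of 0.323. POX_2g02529 had 1521, 1574 and 1808 in the wild type and 425.8, 430.6 and 505.8 in the knockout, a ratio of 0.278. In these 3 genes replicate 3 was again the highest library of both strains. POX_1g01703 had 2046, 2082 and 1775 in the wild type and 612.5, 628.3 and 590.6 in the knockout, a ratio of 0.310, with replicate 3 lowest in both. POX_8g10421 was the steadiest of the 10, with 1845, 1932 and 1847 in the wild type and 642.5, 626.7 and 645.7 in the knockout, CVs of 2.66% and 1.60% and a ratio of 0.341.

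**Figure D3:**
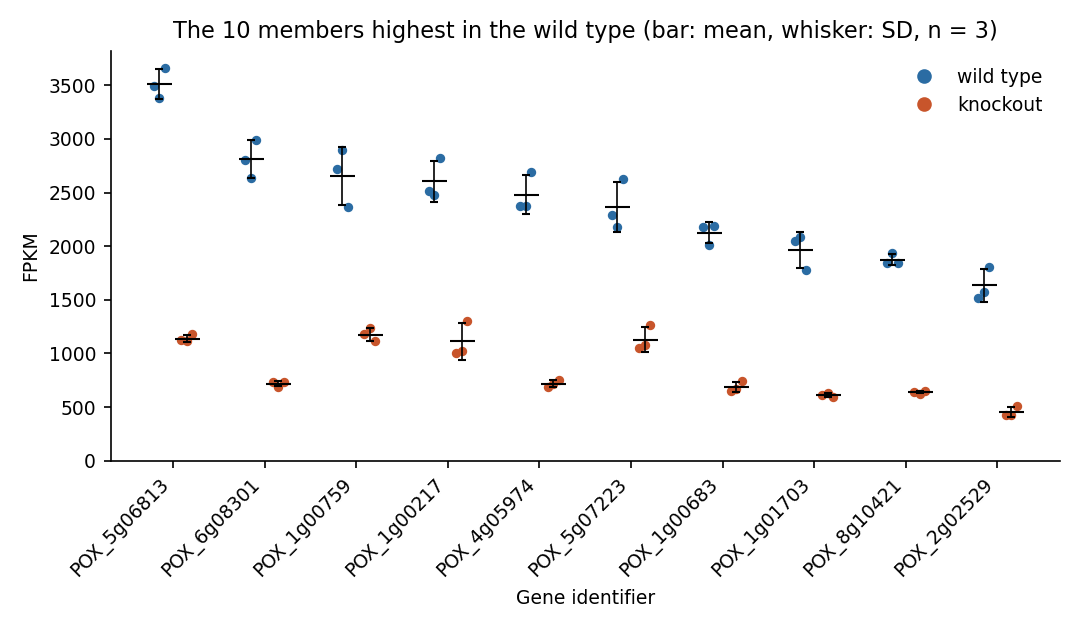
FPKM (linear axis from 0) of the 10 members with the highest wild-type means, 1 point per library, with replicates 1, 2 and 3 from left to right; bars are means and whiskers SD (n = 3). The lowest wild-type value of each gene is well above its highest knockout value, and replicate 3 is often the outermost point in both strains.

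In the fit across all genes (limma on log2(FPKM + 1), Benjamini-Hochberg adjusted p under 0.05), all 113 members were tested and all 113 were called lower. Over the 7703 genes tested, 22.2% were called lower, 16.7% were called higher and 27.8% had every wild-type value above every knockout value. The balance of lower and higher calls over all genes turned with the scaling. It was 19.1% lower and 19.0% higher with scaling by the median ratio, and 18.6% lower and 19.7% higher with the upper quartile. With the replicate number as a block it was 22.8% lower and 17.9% higher. Among the 594 genes with a wild-type mean of at least 300, 60.1% were called lower and 22.6% higher. Those 594 were picked by their wild-type level alone. Such a choice can tilt values toward lower in the knockout, and whether it did so here was not tested. The members were chosen on this contrast, so nothing is read from their count. Their log2 changes on the log2(FPKM + 1) scale ran from -1.99 to -0.996 with a median of -1.38, beside a median of -0.05 over all genes tested and -0.48 over the 594. Their standard errors were 0.061 to 0.151 with a median of 0.10, where the median over all genes tested was 0.27.

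The 95% interval of the log2 change lay wholly between 2-fold and 4-fold for 76 of the 113 genes. It reached beyond the 2-fold limit for 25, beyond the 4-fold limit for 12 and beyond both for 0. The intervals are centred on the values that chose the genes, so they describe the spread and lend the choice no support. With the replicate number as a block the counts were 84, 22, 7 and 0, and with scaling by the upper quartile they were 55, 53, 5 and 0. The 3 least reduced members were all near the edge. POX_3g04515 had 318.3, 307.4 and 289.5 FPKM in the wild type and 147.5, 145.7 and 164.3 in the knockout, a ratio of 0.4999. POX_2g02230 had 775.5, 683.4 and 632.9 in the wild type and 356.1, 322.3 and 361.2 in the knockout, a ratio of 0.497. POX_7g09878 had 446.1, 371.3 and 404.4 in the wild type and 198.1, 200.3 and 204.7 in the knockout, a ratio of 0.494. Their intervals, such as -1.22 to -0.78 for POX_3g04515, hold values on both sides of a 2-fold difference.

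The 3 most reduced members stood at the other edge. POX_8g10301 had 390.6, 336.7 and 354.5 FPKM in the wild type and 88.0, 94.9 and 88.6 in the knockout, a ratio of 0.251. POX_7g09418 had 732.8, 873.9 and 802.4 in the wild type and 184.9, 233.9 and 187.9 in the knockout, a ratio of 0.252. POX_4g05238 had 684.6, 688.8 and 693.6 in the wild type and 161.6, 185.4 and 177.2 in the knockout, a ratio of 0.254. The wild-type values of POX_4g05238 differed by less than any other member's, with a CV of 0.66%. That is below its counting error of 4.68%, the relative SD expected from its footprint numbers.

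The limits of the rule cut through a continuous range. Just outside the ratio of 0.5 were POX_1g01656 at 0.502 and POX_4g05980 at 0.505. POX_4g05980 was far more abundant than any member, with 17750, 16648 and 18430 FPKM in the wild type and 8595, 8920 and 9169 in the knockout. Just outside 0.25 were POX_2g02422 at 0.248 and POX_7g09348 at 0.244. At the level of 300 FPKM, POX_5g07215 and POX_5g07539 lay just inside, with wild-type means of 303.8 each. POX_6g08406 and POX_7g09410 lay just outside, with means of 299.1 and 296.7 and ratios of 0.273 and 0.485. POX_6g08406 had 280.9, 311.4 and 305.1 in the wild type and 82.2, 81.4 and 81.5 in the knockout, so its strains did not overlap either.

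To read the difference in libraries not used to pick the genes, the rule was applied to 2 libraries of each strain. The ratio was then read in the 2 libraries of the number left out. The limits of the rule were set with all 6 libraries known, so the libraries left out are not independent of it. With replicate 1 left out, 112 genes were chosen, of which 106 had a ratio of at most 0.5 in replicate 1 and 100 a ratio within the range of the rule. With replicate 2 left out, 115 genes were chosen, of which 103 were at most 0.5 in replicate 2 and 100 within the range. With replicate 3 left out, 118 genes were chosen, of which 103 were at most 0.5 in replicate 3 and 97 within the range. The ratio in the libraries left out was under 1 for every gene chosen, in each of the 3 rounds. The shares of all genes tested with a ratio under 1, or within the range of the rule, were not computed for single replicates. Nothing is therefore read from the counts under 1 or within the range.

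As a background for the counts at most 0.5, 18.9%, 18.6% and 17.6% of all genes tested had such a ratio in replicates 1, 2 and 3 taken alone. Among tested genes with a mean of at least 300 in the other 2 wild-type libraries, it was 31.3%, 31.6% and 30.6%. Of the genes chosen, 94.6%, 89.6% and 87.3% did so. The median ratio in the libraries left out was 0.373, 0.390 and 0.385, next to 0.372, 0.380 and 0.384 in the libraries that chose. The genes more reduced in the choosing libraries were mostly those more reduced in the libraries left out. Across the genes chosen, the log2 ratios of the choosing libraries and of those left out correlated at r = 0.81, 0.79 and 0.80 (n = 112, 115 and 118 genes, which share libraries and depth and are not independent). A gene's log2 ratio differed between them by a median of 0.11 to 0.14. In all, 96 of the 113 members were chosen in each of the 3 rounds.

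**Figure D4:**
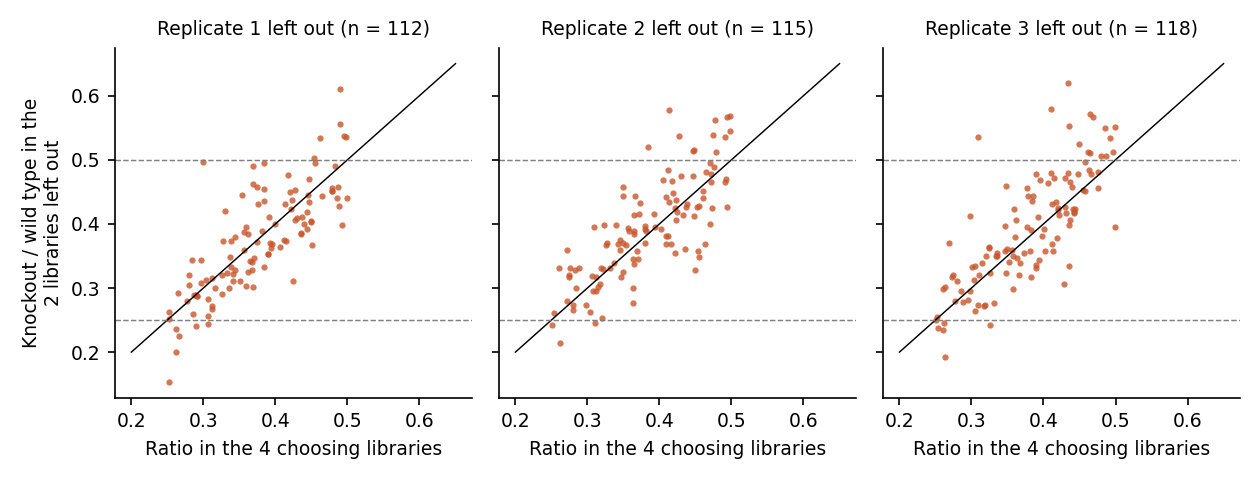
Knockout over wild-type ratio in the 2 libraries left out (vertical) against the ratio in the 4 libraries that chose the genes (horizontal), 1 point per gene and 1 panel per replicate number; the solid line marks equal values and the dashed lines 0.25 and 0.5. Points follow the line of equal values in all 3 panels and stay below 1, with a highest ratio of 0.619.

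The members' median replicate CV was 7.62% among wild-type libraries, beside a median counting error of 5.40%. Among knockout libraries it was 6.64%, beside 6.08%. The CV exceeded the counting error of the same gene for 83 members (73.5%) among wild-type libraries and for 72 (63.7%) among knockout libraries. In the 408 genes of the same level with a ratio above 0.5 the shares were 64.2% and 75.7%, and over the 6741 genes tested and above 0 in every library they were 47.8% and 54.8%. Neither the share nor the median CV that counting error alone would give with 3 libraries was computed. For those 408 genes the median CVs were 6.65% and 6.10% with counting errors of 5.52% and 3.62%. The members' knockout footprints were fewer than those of these genes, at a median of 273 against 763 per library, and their counting error was larger. These sets were split at a ratio of 0.5, so both differences follow from the split.

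The most variable members in the wild type were POX_5g07215 and POX_2g02123. POX_5g07215 had 284.2, 251.9 and 375.3 FPKM in the wild type and 104.8, 111.6 and 136.3 in the knockout. POX_2g02123 had 1085, 1057 and 1505 in the wild type and 314.4, 338.3 and 397.6 in the knockout. In both genes replicate 3 stood above replicates 1 and 2 in both strains. The most variable members in the knockout were POX_3g04288, with 522.9, 463.3 and 447.4 in the wild type and 224.0, 267.9 and 176.6 in the knockout, and POX_6g08105, with 497.7, 539.0 and 571.8 in the wild type and 150.3, 214.7 and 194.7 in the knockout. Their knockout CVs were 20.5% and 17.7%, against counting errors of 6.42% and 6.17%, and their strains still did not overlap.

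The libraries numbered 3 often deviated in the same direction in both strains. Replicate 3 was the highest wild-type library for 49 members and the highest knockout library for 55, and for 30 members it was the highest of both. It was the lowest of both for 16, and it lay on opposite sides of the strain means for 40 members. For replicates 1 and 2 the numbers of members highest in both strains were 8 and 11. Each library's log2 deviation from the mean of its strain was correlated across the 113 members between strains, at r = 0.22 for the libraries numbered 1, 0.16 for those numbered 2 and 0.46 for those numbered 3. Libraries of different numbers could correlate as well: wild-type replicate 2 and knockout replicate 1 gave 0.30, above the value of either with its own number. Wild-type replicate 3 and knockout replicate 1 gave -0.38. The deviations within a strain sum to 0, so these values are not independent of each other, and they describe genes, not samples.

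Genes outside the group gave same-number correlations too. Among the 408 genes of the same level with a ratio above 0.5, they were 0.28, 0.36 and 0.56. Among the 143 genes of that level with a ratio of 0.8 to 1.25 they were 0.26, 0.43 and 0.60, and among the 63 with a ratio of at most 0.25 and no value at 0 they were 0.09, 0.06 and 0.03. Over all 6741 genes tested and above 0 in every library they were 0.02, 0.03 and 0.04, where the median gene had 28 footprints per wild-type library and counting error is larger. The deposited totals of a wild-type and a knockout library of the same number sum to 2000000 within 0.44, but a common factor per library shifts all genes alike and leaves these correlations as they are. What the libraries numbered 3 share is not given in the labels and was not tested. Without replicate 3 in either strain, 7307 genes were tested, of which 1391 were called lower and 1025 higher. All 113 members were called lower in that fit, with a median log2 change of -1.38. The libraries kept were among those that chose the members, so nothing is read from their count.

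**Figure D5:**
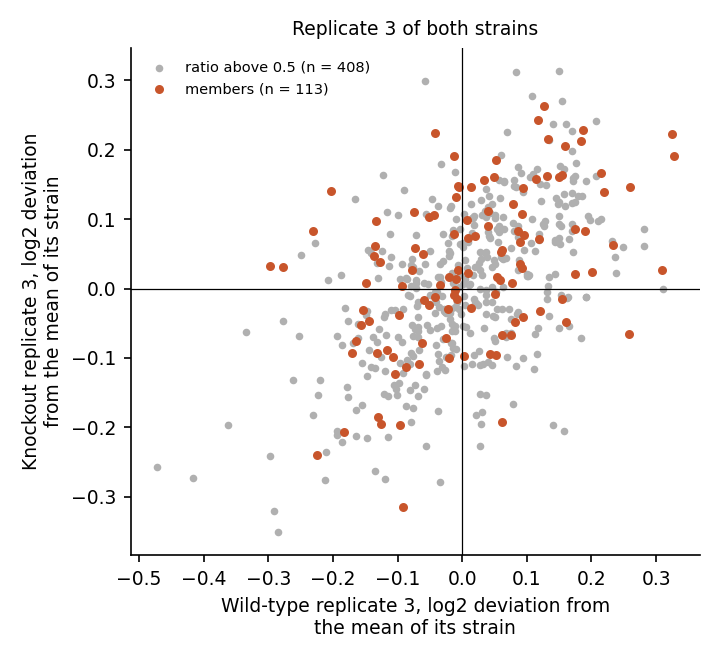
Log2 deviation of knockout replicate 3 from the mean of its strain against the same for wild-type replicate 3, 1 point per gene, for the 113 members and for the 408 genes with a wild-type mean of at least 300 and a ratio above 0.5. Points spread along the rising diagonal in both sets (r = 0.46 and 0.56).

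The places of the members in the identifier series are described by counts only. The digit before the letter g in the identifier ran from 1 to 8 for the members, with 19, 22, 11, 12, 22, 15, 9 and 3 members in that order. As shares of the genes with a wild-type mean of at least 300 and the same digit, this was 15.3%, 21.6%, 13.4%, 18.5%, 25.0%, 26.3%, 19.1% and 10.3%, around 19.0% for all. Whether the digit names a chromosome is not given in the files, and these shares were not tested against each other.

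Genes next to the members in the identifier order included both lower and higher genes. Among genes tested, 216 that were no members stood directly before or after a member, and 39 of them (18.1%) were called lower and 35 (16.2%) higher, beside 22.2% and 16.7% of all genes tested. With scaling by the upper quartile 32 were lower and 48 higher, so the direction of this balance too depends on the scaling. With the replicate number as a block 41 were lower and 40 higher. At least 2-fold lower and past the threshold were 19 of the 216 (8.80%), beside 12.2% of all genes tested. The 216 leave out the 10 neighbours that were members, while all genes tested include the 113 members, all called lower. These sets are therefore unlike, and nothing is read from the smaller shares of lower genes among the 216. The median log2 change of the 216 was -0.05, the same to 2 decimals as over all genes tested. At 2 places from a member, 35 of 225 were called lower, and at 3 places 48 of 223.

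There were 5 pairs of members next to each other among the genes tested. How many such pairs other sets of tested genes of this size would give was not computed, so nothing is read from this count. Of the 10 tested genes that flank the 5 pairs, 2 were called lower, 2 higher and 6 neither. POX_7g09434 had 914.3, 895.3 and 1031 FPKM in the wild type and 220.1, 250.7 and 308.5 in the knockout, and its neighbour POX_7g09435 had 973.1, 999.4 and 981.8 and 279.3, 262.0 and 315.1. The levels and ratios of this pair were alike, at 0.274 and 0.290, and the gene before them, POX_7g09433, was also lower in the knockout, with a wild-type mean of 65.4 and a knockout mean of 28.5 FPKM (log2 change -1.21, limma adjusted p = 0.0010). The gene after them, POX_7g09436, had means of 17.5 and 23.7 and did not pass the test (adjusted p = 0.40).

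POX_6g08159 had 1182, 1221 and 1419 FPKM in the wild type and 585.2, 626.6 and 575.9 in the knockout, and POX_6g08160 had 1023, 1026 and 1071 and 441.4, 404.8 and 383.2. The gene before this pair, POX_6g08158, went the other way, with 697.3, 727.0 and 740.3 in the wild type and 1076, 1126 and 1089 in the knockout (log2 change 0.60, limma adjusted p = 9.18e-06). POX_3g03909 had 393.2, 425.1 and 355.9 in the wild type and 179.3, 176.8 and 196.8 in the knockout, and POX_3g03910 had 582.2, 544.7 and 583.4 and 234.4, 232.6 and 274.7. Here too the gene before the pair, POX_3g03908, was higher in the knockout, at means of 250.3 against 181.6 FPKM (log2 change 0.46, limma adjusted p = 0.0030).

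The remaining pairs were a step further apart in number, with no tested gene between them. POX_1g01701 had 562.7, 561.7 and 504.8 FPKM in the wild type and 137.5, 186.0 and 140.6 in the knockout, next to POX_1g01703 above, and the gene after them, POX_1g01705, was lower by less, with means of 887.7 and 528.9 FPKM (log2 change -0.74, limma adjusted p = 1.05e-05). POX_4g05240 had 789.2, 903.9 and 1029 in the wild type and 364.7, 333.0 and 379.7 in the knockout, next to POX_4g05238 above. The tested genes on either side of that last pair, POX_4g05236 and POX_4g05241, had wild-type means of 6.27 and 1.11 FPKM and did not pass the test (adjusted p = 0.71 and 0.16).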

How the data were processed

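Ribosome footprints (RNA of 26 to 34 nucleotides kept after RNase I for 1 h, per the labels' protocols) were measured in 6 libraries of mycelia, grouped by sample title. The values are FPKM per gene, made by the authors and named so per the file headers. Tools listed, without their use, per the submitters' processing notes are STAR 2.7, Bowtie, cutadapt and DESeq2. No genome build, annotation or counter is given in the sources used here. Footprints per gene were read from the steps between FPKM values, which came out whole within 0.101 of a footprint for all 7855 genes above 0 in at least 3 libraries. On simulated data most genes, but not every one, were read back exactly. Counting errors from them cover counting only.

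The fit across all genes was limma 3.58.1 (R 4.3.3) with a mean-variance trend, two-sided, on log2(FPKM + 1), for 7703 genes (those with 3 or more libraries at 1 FPKM or higher), with Benjamini-Hochberg adjustment and a threshold of 0.05. Its p-values cover only the spread between 3 libraries per strain. The members, the rule and the comparisons were chosen with earlier results of these data known. Genes named are the 10 members highest in the wild type, the 3 with the lowest and highest ratios, the 2 most variable in each strain, members next to a member, and the 2 genes on each side of each limit; POX_7g09433 and the other genes flanking such pairs were named because of their place. Gene lists fixed by name were not analysed here, as no identifier matched. Same-numbered libraries were checked as pairs: their deviations correlated at 0.02, 0.03 and 0.04 over all genes tested, so the reported fit has no block. Over the members they correlated at 0.22, 0.16 and 0.46, so this choice depends on the genes used. Some counts and standard errors with the block are given beside those without it. Alternatives were 3 other pseudocount and filter settings, 4 other scalings, a replicate block, limma-voom on recovered footprints, leaving out libraries, and other limits of the rule.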

Additional observations from a re-analysis of the deposited data

How the results depend on the processing

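All 113 members were called lower in each of the 18 other fits run: pseudocounts of 0.1 and 5, no filter, 4 scalings, the replicate block, limma-voom, and leaving out 1 library or 1 replicate number. Of all genes tested in these fits, 17.4% (without replicate 1) to 25.1% (limma-voom) were called lower. The members were chosen on this contrast in the same libraries, so nothing is read from their count. The members' median log2 change was -1.28 with scaling by the median ratio, -1.26 with the upper quartile, -1.31 with the total and -1.29 with the total without the 20 most abundant genes, beside -1.38 at the deposited scaling. The upper quartile moved the median of all genes tested by over 0.1, from -0.05 to 0.06; relative to that median, the members stood at -1.33 at the deposited scaling and at -1.32 with the upper quartile. The number of genes meeting the rule was 101, 100, 105 and 101 under these scalings, in the order above, and 96, 94, 102 and 96 of them were among the 113. With 1 library left out it was 108 to 119, with 1 replicate number left out in both strains (added after the data were seen) 112 to 118, and with ratios of medians 116. A wild-type limit of 200 gave 152 genes and one of 500 gave 77. With the replicate block, 3134 genes passed the threshold, beside 2996 without it, and the members' median standard error went from 0.10 to 0.083, with the same 113 called; it changed no call among the 35 genes named by the rule. Leaving out 1 library gave 2430 to 2958 genes past the threshold, with a median log2 change of the members of -1.42 to -1.35. Leaving out both libraries of a number gave 2169 to 2416, and -1.42 to -1.38. These 35 genes kept direction and side of the threshold in each of the 18 other fits, which is all 630 combinations of gene and fit. Of them, 29 are members chosen on this contrast, and the rest were named for lying near a limit of the rule. That outcome therefore lends the choice no support. DESeq2 was not run, since the files hold no counts. The members' median counting error was 5.40% among wild-type libraries and 6.08% among knockout libraries, and the median CVs seen were 7.62% and 6.64%. The median CV that counting error alone would give with 3 libraries was not computed, so how far depth limits the precision is not known.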
